A study of Mus musculus with 6 samples.

Results

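The genes described here encode the factors that form a blood clot, the proteins that hold clotting in check and the plasminogen system that dissolves fibrin. The set names 33 genes, and 31 of them had a probe set of their own among the 22180 genes tested. Each of the 31 had a single such probe set, which was used. Klkb1 (plasma prekallikrein) shares its probe set with Cyp4v3, and Cpb2 (the fibrinolysis inhibitor TAFI) had no listed probe set, so neither has a value here.

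The samples were livers of male mice, 3 of the substrain Balb/c, which the series marks WT, and 3 of Balb/cBy, marked KD. Fat gave 58% of the energy in the food of all 6 mice from the age of 8 weeks, for 12 weeks until they were 20 weeks old, so no group on a normal diet was compared. Each liver was measured on its own Affymetrix whole-transcript array. Arrays of 1 substrain are biological replicates by their labels, so the p-values measure the spread between these animals. Values are RMA values on the log2 scale, on which a difference of 1 is a doubling. A difference is the Balb/cBy mean minus the Balb/c mean, with the standard error (SE) of the limma fit.

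The arrays were alike: between any pair, Pearson's r across genes was 0.977 to 0.99 within a substrain and 0.977 to 0.991 across substrains. The labels name no gene for KD. From general knowledge, a spontaneous deletion in Acads, a fatty acid oxidation enzyme, marks BALB/cBy mice. Acads read 11.53, 11.46 and 11.28 in Balb/c and 10.60, 10.79 and 10.93 in Balb/cBy, a difference of -0.65 ± 0.12 (SE) that did not pass (limma adjusted p = 0.319). The place of its probes relative to the deletion was not examined, so this value does not check the labels. The hepatocyte markers Alb, Ttr and Apoa1 were bright on every array, and the mean over the 10 hepatocyte markers lay between 12.61 and 12.79. Ass1, also among the 10, was dim, with means of 8.07 in Balb/c and 8.12 in Balb/cBy.

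Clotting starts when tissue factor on cells outside the vessel binds factor VII, or when factor XII is activated on a surface with prekallikrein and kininogen. Both routes activate factor X, which with factor V turns prothrombin into thrombin, and thrombin cuts fibrinogen into fibrin that factor XIII crosslinks. Antithrombin, heparin cofactor II, the tissue factor pathway inhibitor and the protein C system limit thrombin, and plasmin dissolves the clot. Hepatocytes make most of these plasma proteins. Factor VIII, von Willebrand factor, thrombomodulin, the protein C receptor and tissue plasminogen activator are made mainly by endothelial cells, and the A chain of factor XIII by macrophages and megakaryocytes. In a sample of whole liver, fewer cells of a type and less RNA per cell cannot be told apart.

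No test below uses the promoter sequences, which are shown as a description for 6 genes. These are the 3 fibrinogen chain genes, which lie side by side and whose levels are compared mouse by mouse, and the 3 genes whose values did not overlap between the substrains. Each sequence covers the 250 bases before the transcript start in RefSeq's GRCm38.p6 annotation, 5′ to 3′ on the gene's strand. Capitals mark matches, on either strand, to GTTAAT (core of the HNF1 motif), AGGTCA (a hexamer shared by HNF4 and other nuclear receptors), TTGNNNAA (C/EBP), TTCNNNGAA (STAT3) and CTGGGA (the type II interleukin 6 element). The windows are chr3:83025903-83026152 on the plus strand for Fga, chr3:83049864-83050113 on the minus strand for Fgb and chr3:83007474-83007723 on the plus strand for Fgg. Those of Hrg, F7 and Pros1 are chr16:22950822-22951071, chr8:13025784-13026033 and chr16:62854057-62854306, all on the plus strand.
Fga: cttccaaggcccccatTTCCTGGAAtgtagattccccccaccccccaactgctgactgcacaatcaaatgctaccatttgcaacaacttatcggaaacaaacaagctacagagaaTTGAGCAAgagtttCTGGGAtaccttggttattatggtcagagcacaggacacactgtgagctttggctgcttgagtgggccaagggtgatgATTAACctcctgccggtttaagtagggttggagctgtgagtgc
Fgb: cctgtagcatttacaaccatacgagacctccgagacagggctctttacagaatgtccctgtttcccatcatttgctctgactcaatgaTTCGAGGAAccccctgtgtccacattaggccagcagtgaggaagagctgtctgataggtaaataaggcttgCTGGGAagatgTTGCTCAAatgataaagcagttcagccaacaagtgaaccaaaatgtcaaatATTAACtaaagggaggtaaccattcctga
Fgg: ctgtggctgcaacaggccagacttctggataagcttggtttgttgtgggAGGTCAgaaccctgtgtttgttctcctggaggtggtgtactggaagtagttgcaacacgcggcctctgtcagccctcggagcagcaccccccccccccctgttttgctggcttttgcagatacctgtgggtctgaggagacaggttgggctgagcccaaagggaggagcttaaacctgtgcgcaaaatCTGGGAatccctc
Hrg: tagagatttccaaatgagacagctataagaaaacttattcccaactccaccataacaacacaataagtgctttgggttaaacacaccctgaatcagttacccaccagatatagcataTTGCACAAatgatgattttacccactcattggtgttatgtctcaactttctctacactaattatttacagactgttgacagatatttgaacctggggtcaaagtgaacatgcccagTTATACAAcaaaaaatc
F7: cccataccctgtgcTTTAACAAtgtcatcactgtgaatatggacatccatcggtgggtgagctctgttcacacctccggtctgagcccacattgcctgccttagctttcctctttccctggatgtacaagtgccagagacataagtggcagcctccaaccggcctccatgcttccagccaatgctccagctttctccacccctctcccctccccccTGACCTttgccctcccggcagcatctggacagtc
Pros1: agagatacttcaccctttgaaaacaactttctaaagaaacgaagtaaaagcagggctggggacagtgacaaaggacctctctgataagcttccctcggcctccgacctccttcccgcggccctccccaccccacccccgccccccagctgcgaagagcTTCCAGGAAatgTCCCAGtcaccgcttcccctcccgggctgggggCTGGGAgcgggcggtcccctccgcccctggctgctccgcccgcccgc

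The windows of Fga and Fgb each held 4 of these motifs: the HNF1 core, 43 and 29 bases before the start, a C/EBP match at 135 and 80, a STAT3 match at 234 and 162, and the interleukin 6 element at 121 and 91. The Fgg window held the interleukin 6 element 13 bases before the start and an AGGTCA hexamer at 201. The window of Hrg held 2 C/EBP matches, that of F7 1 AGGTCA hexamer and 1 C/EBP match, and that of Pros1 1 STAT3 match and 2 interleukin 6 elements. Of the members, 25 have an entry in RefSeq's promoter table. The HNF1 core was present in the windows of 4 of them (F13b, Fga, Fgb and Proz) and in 6.43% of all 32841 windows of this length. The C/EBP motif was present in 16 members and 33.3% of all windows, the AGGTCA hexamer in 8 and 14.0%, STAT3 in 4 and 7.02%, and the interleukin 6 element in 11 and 27.0%. The full palindromic HNF1 motif, which contains the core, matched in 0 of the 25 members' windows and in 0.00913% of all windows. The matches shown do not overlap each other. A match is a description of the letters and not a bound site.

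Coagulation and fibrinolysis genes differed little between the substrains. Of the 31 measured members, 0 passed the limma adjusted p of 0.05, the same share as over all genes tested (0.0%); the adjusted p was 0.999 for each of them. At an unadjusted p under 0.05 there was 1 member, Hrg, which was higher in Balb/cBy, beside 3.74% of all genes (2.59% higher and 1.15% lower). The differences ran from -0.26 (F13b) to 0.27 (F7), and 28 of the 31 lay within 0.15 of 0. Their median was 0.03, beside -0.0028 over all genes, and the median size of a difference was 0.07 beside 0.08. By sign alone 20 members were higher and 11 lower in Balb/cBy, or 64.5% higher beside 49.1% of all genes. Most members are brighter than many of those genes. With only the brighter probe sets kept, 66.7% of 27 members were higher beside 56.6% of the 11342 genes. Their median differences were 0.050 and 0.02. After renewed quantile normalization 48.4% of the members were higher beside 47.9% of all genes, and without Balb/c replicate 1 45.2% beside 48.3%. The groups did not overlap in 3 members, Hrg, F7 and Pros1, all higher in Balb/cBy. That is 9.68% of the members, beside 7.83% of all genes, of which 4.32% were higher and 3.51% lower in Balb/cBy.

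A p that misses the threshold does not show equal levels, so the intervals matter more. The 95% interval of the difference lay within 1.5-fold in either direction for 28 of the 31 members, beside 88.7% of all genes. The 3 others were F11, with an interval from 0.717 to 1.6 times the Balb/c level, F9 (0.68 to 1.53 times) and F13b (0.639 to 1.09 times). The SE of a member's difference ran from 0.08 to 0.25, with a median of 0.11. Olfactory receptor genes, 1105 in all and hardly used in liver, gave a stand-in for background: 95% of their mean log2 values lay under 8.02. F13a1, Tfpi, Thbd and A2m lay below it in both groups, so their small differences say little.

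**Figure D1:**
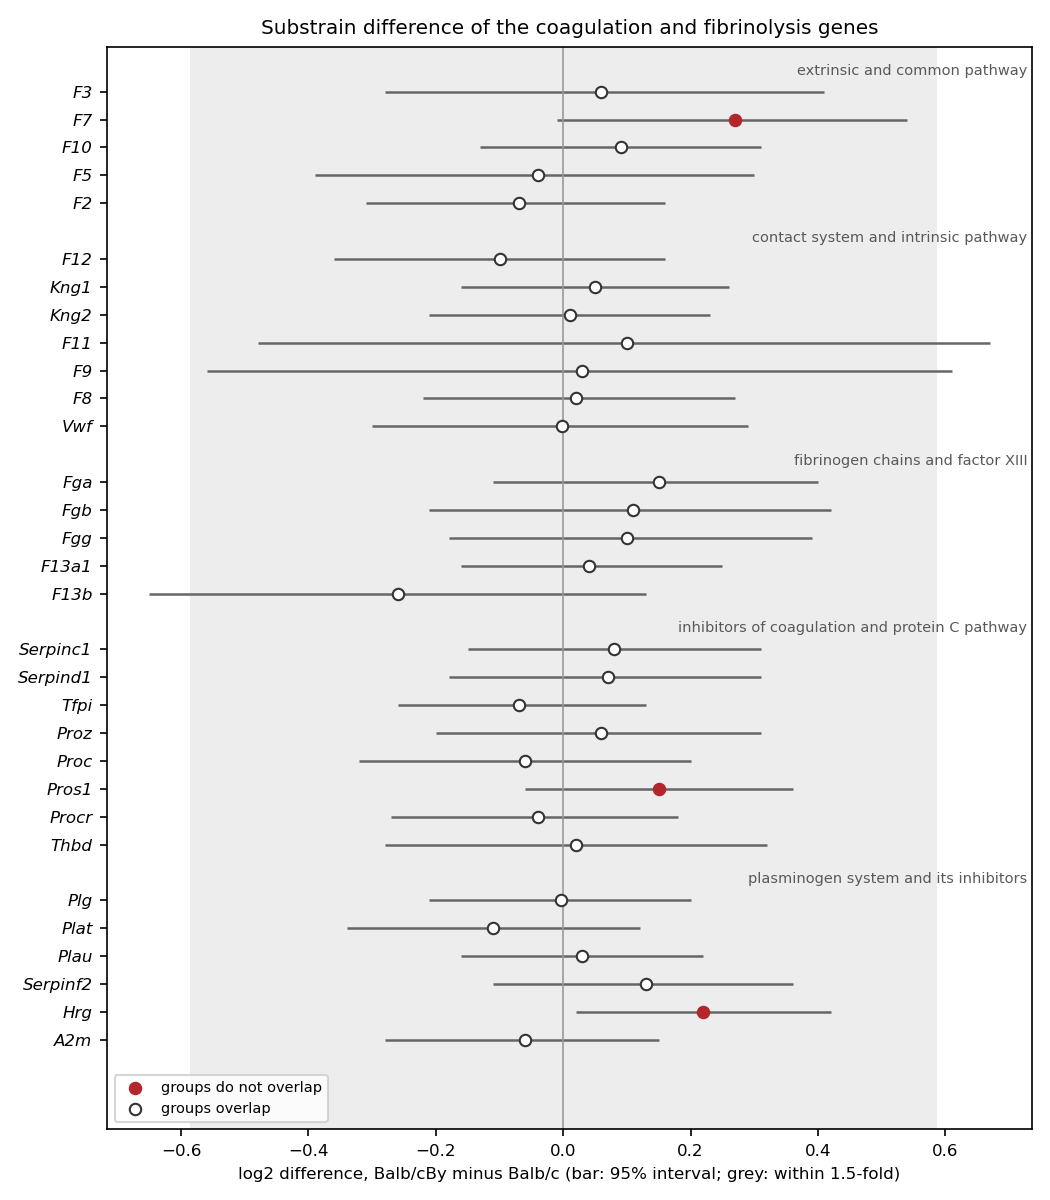
Difference in log2 value between Balb/cBy and Balb/c liver (x axis, Balb/cBy minus Balb/c) for the 31 measured genes, ordered by role, with bars for the 95% interval of the limma fit (3 mice per group) and grey for 1.5-fold either way. The bars of F11, F9 and F13b leave the grey band, and the filled points mark F7, Pros1 and Hrg, whose groups did not overlap.

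Among the genes of the extrinsic and common pathway, F7 (factor VII, the partner of tissue factor) had the largest difference of any member. It read 10.53, 10.47 and 10.29 in Balb/c and 10.55, 10.64 and 10.89 in Balb/cBy. The groups were apart by a narrow margin, and Balb/cBy replicate 3 was the highest. The difference was 0.27 ± 0.12 (SE), 1.2 times the Balb/c level, with an unadjusted p of 0.0588 and an adjusted p of 0.999 by limma. Without Balb/cBy replicate 1 it was 0.34 ± 0.13 (SE), with an adjusted p of 0.585, and without Balb/cBy replicate 3 it was 0.17.

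F10 (factor X), the gene next to F7, read 11.43, 11.35 and 11.35 in Balb/c and 11.57, 11.36 and 11.47 in Balb/cBy. The groups overlapped, and the difference was 0.09 ± 0.09 (SE). F2 (prothrombin) averaged 13.18 ± 0.10 in Balb/c against 13.10 ± 0.12 in Balb/cBy (SD, n = 3 each). F5 (factor V, the cofactor of factor X) averaged 11.55 ± 0.31 against 11.50 ± 0.04, and F3 (tissue factor, which starts the pathway) 8.28 ± 0.29 against 8.34 ± 0.11 (SD, n = 3 each). In F5 and F3 the Balb/c spread came from replicate 3, described below.

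The contact and intrinsic genes gave 0 members whose groups were apart. F12 (factor XII, which starts the contact route) differed by -0.10 ± 0.11 (SE), with means of 11.81 ± 0.11 and 11.72 ± 0.16 (SD, n = 3 each). Kng1 and Kng2, a pair of kininogen genes that carry prekallikrein and factor XI in plasma, differed by 0.05 ± 0.09 and 0.01 ± 0.10 (SE). These neighbours are close paralogues, and how their probes share sequence was not tested, so their values may not be independent. F8 (factor VIII) differed by 0.02 ± 0.11 (SE) and Vwf, the carrier of factor VIII, by -0.0014 ± 0.13 (SE).

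F11 and F9, the proteases that follow one another in this route, had the widest spread of all members. F11 (factor XI) read 9.43, 9.55 and 10.49 in Balb/c and 9.89, 10.01 and 9.86 in Balb/cBy. Balb/c replicate 3 was above all other mice and Balb/c replicates 1 and 2 below all others, and the group means, 9.82 and 9.92, differed by 0.10 ± 0.25 (SE). F9 (factor IX) read 11.07, 10.90 and 11.80 in Balb/c and 11.70, 11.11 and 11.05 in Balb/cBy. Here 1 mouse of each substrain was high, and the difference was 0.03 ± 0.25 (SE). Without Balb/c replicate 3 the difference was 0.43 ± 0.11 (SE) for F11 and 0.30 ± 0.20 (SE) for F9, with limma adjusted p of 0.827 and 0.983. The sign of both was unstable: that of F11 turned to -0.10 ± 0.25 (SE) without Balb/c replicate 1 and to -0.04 ± 0.28 (SE) without Balb/c replicate 2, and that of F9 to -0.18 ± 0.25 (SE) without Balb/cBy replicate 1.

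The fibrinogen chains, which thrombin cuts to form the clot, shared their lowest and highest mouse. Fga (the alpha chain) read 12.47, 12.63 and 12.64 in Balb/c and 12.91, 12.62 and 12.66 in Balb/cBy. For Fgb (beta) the values were 13.16, 13.41 and 13.58 against 13.70, 13.39 and 13.38. Those of Fgg (gamma) were 13.30, 13.32 and 13.49 against 13.71, 13.37 and 13.34. In each chain Balb/c replicate 1 was the lowest mouse and Balb/cBy replicate 1 the highest, and the groups overlapped. The differences were 0.15 ± 0.11, 0.11 ± 0.14 and 0.10 ± 0.13 (SE). The mean of the acute phase list described below was also highest in Balb/cBy replicate 1, at 12.91, but the other mice were ordered differently. It was 12.79 in Balb/c replicate 1, the lowest mouse for the chains, and 12.87 and 11.38 in Balb/c replicates 2 and 3. Balb/cBy replicates 2 and 3 had 12.40 and 12.48. The part of the acute phase genes in the fibrinogen values was not tested. Without Balb/cBy replicate 1 the differences were 0.06 ± 0.10 for Fga, and 0.00 ± 0.14 and -0.02 ± 0.10 for Fgb and Fgg (SE).

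Across the 6 mice, Pearson's r was 0.893 between Fga and Fgb (exact permutation p = 0.0403), 0.887 between Fga and Fgg (exact p = 0.0222) and 0.886 between Fgb and Fgg (exact p = 0.00694), all two-sided. Adjusted over the 3 pairs these p-values were 0.0403, 0.0333 and 0.0208. Spearman's rho was 0.657, 0.714 and 0.829 in the same order, with exact p-values of 0.175, 0.136 and 0.0583 that were all 0.175 after adjustment. Leaving out Balb/c replicate 1 and Balb/cBy replicate 1, the mice farthest from the median, gave r of -0.0059, -0.0342 and 0.94. The relation of Fga to the other chains thus rests on those 2 mice, while that of Fgb and Fgg was kept among the other 4, of which Balb/c replicate 3 stands above 3 mice that lie close together. The pooled values mix both substrains, and 3 mice are too few for a value within each.

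**Figure D2:**
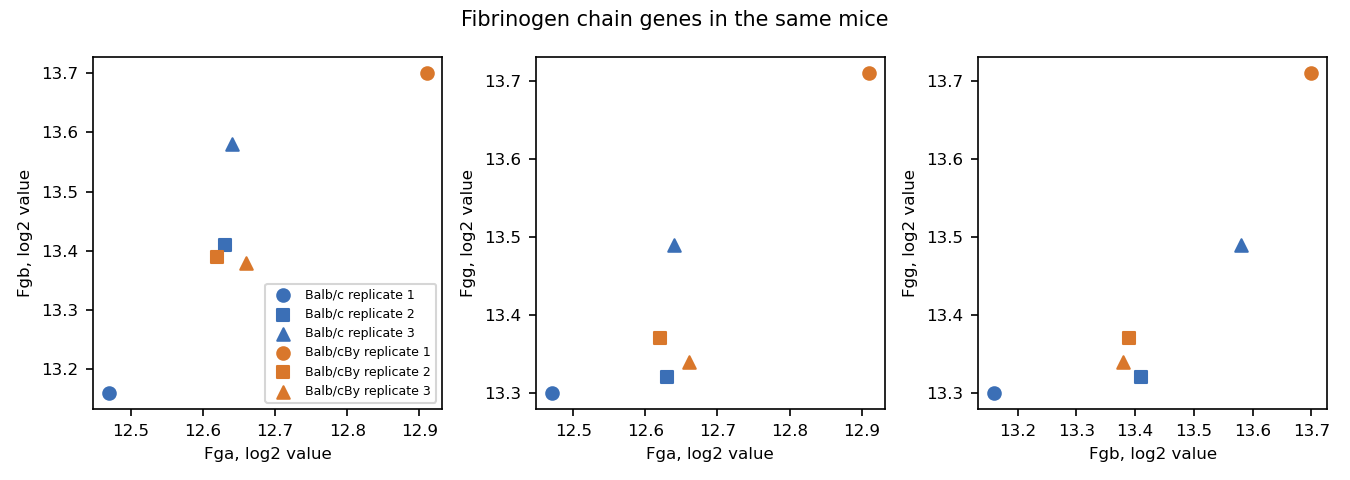
Log2 values of the fibrinogen chain genes Fga, Fgb and Fgg plotted against each other, 1 point per mouse, with colour for the substrain and shape for the replicate number. Balb/c replicate 1 lies at the lower left and Balb/cBy replicate 1 at the upper right of each panel, and in the panel of Fgb and Fgg Balb/c replicate 3 lies between them, apart from the 3 other mice (r = 0.886 over all 6).

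Factor XIII, which crosslinks fibrin, is built of 2 kinds of chain. F13b (the carrier B chain) had the largest difference towards lower values in Balb/cBy. It read 10.40, 10.11 and 10.81 in Balb/c and 10.19, 10.27 and 10.07 in Balb/cBy. The groups overlapped through Balb/c replicate 2, and Balb/c replicate 3 was the highest. The difference was -0.26 ± 0.17 (SE), 0.836 times the Balb/c level, with an unadjusted limma p of 0.164. It was -0.07 ± 0.13 (SE) without Balb/c replicate 3 and -0.42 ± 0.15 (SE) without Balb/c replicate 2 (limma adjusted p = 1.0). F13a1 (the catalytic A chain) differed by 0.04 ± 0.09 (SE) under the olfactory receptor level.

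Of the 8 inhibitors and protein C pathway genes, 5 read higher and 3 lower in Balb/cBy, with a median difference of 0.04 and 0 passing by limma (1 of the 31 members, in another group, had an unadjusted p under 0.05). Pros1 (protein S, cofactor of protein C) read 9.09, 9.16 and 8.97 in Balb/c and 9.27, 9.20 and 9.19 in Balb/cBy. Its groups were apart, by 0.15 ± 0.09 (SE), 1.11 times the Balb/c level, with an unadjusted limma p of 0.148. After renewed quantile normalization the difference was 0.09. Proc (protein C), which protein S assists, differed by -0.06 ± 0.11 (SE) with overlapping groups, and Procr, the endothelial receptor of protein C, by -0.04 ± 0.10 (SE).

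The groups overlapped in both thrombin inhibitors of the serpin family. Serpinc1 (antithrombin) averaged 12.54 ± 0.12 in Balb/c against 12.62 ± 0.07 in Balb/cBy (SD, n = 3 each). Serpind1 (heparin cofactor II) was 13.03 ± 0.16 and 13.09 ± 0.03 (SD, n = 3 each). Proz (protein Z, the cofactor of a factor X inhibitor) differed by 0.06 ± 0.11 (SE). Tfpi, the inhibitor of the tissue factor pathway, and Thbd, the thrombomodulin that turns thrombin towards protein C, differed by -0.07 ± 0.09 and 0.02 ± 0.13 (SE), both under the olfactory receptor level.

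In the plasminogen system the 1 gene set apart was Hrg, histidine-rich glycoprotein, which binds plasminogen, fibrinogen and heparin. It read 12.95, 12.83 and 12.84 in Balb/c and 13.07, 13.12 and 13.08 in Balb/cBy. All Balb/cBy mice were above all Balb/c mice, and the spread within each group was small (SD 0.06 and 0.03, n = 3 each). The difference was 0.22 ± 0.09 (SE), 1.16 times the Balb/c level with a 95% interval of 1.01 to 1.33 times. Its p by limma was 0.0366 unadjusted and 0.999 adjusted over all genes. With 1 mouse left out the difference stayed between 0.20 and 0.25, with unadjusted limma p from 0.0456 to 0.0952.

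Plg (plasminogen itself) differed by -0.0038 ± 0.09 (SE), the interval reaching from 0.864 to 1.15 times the Balb/c level. Serpinf2 (antiplasmin, its main inhibitor) read 12.82, 13.10 and 12.98 in Balb/c and 13.11, 13.04 and 13.13 in Balb/cBy. The groups overlapped through Balb/c replicate 2, and the difference was 0.13 ± 0.10 (SE). Plat (tissue plasminogen activator) read 8.20, 8.16 and 8.06 in Balb/c and 7.99, 7.93 and 8.17 in Balb/cBy. Here Balb/cBy replicate 3 lay among the Balb/c mice, and the difference was -0.11 ± 0.10 (SE). Plau (urokinase) differed by 0.03 ± 0.08 (SE), close to the olfactory receptor level. A2m (alpha-2-macroglobulin, a broad protease trap) differed by -0.06 ± 0.09 (SE) under that level, and Pzp, the related gene that mouse liver expresses strongly, by -0.0035 ± 0.10 (SE).

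**Figure D3:**
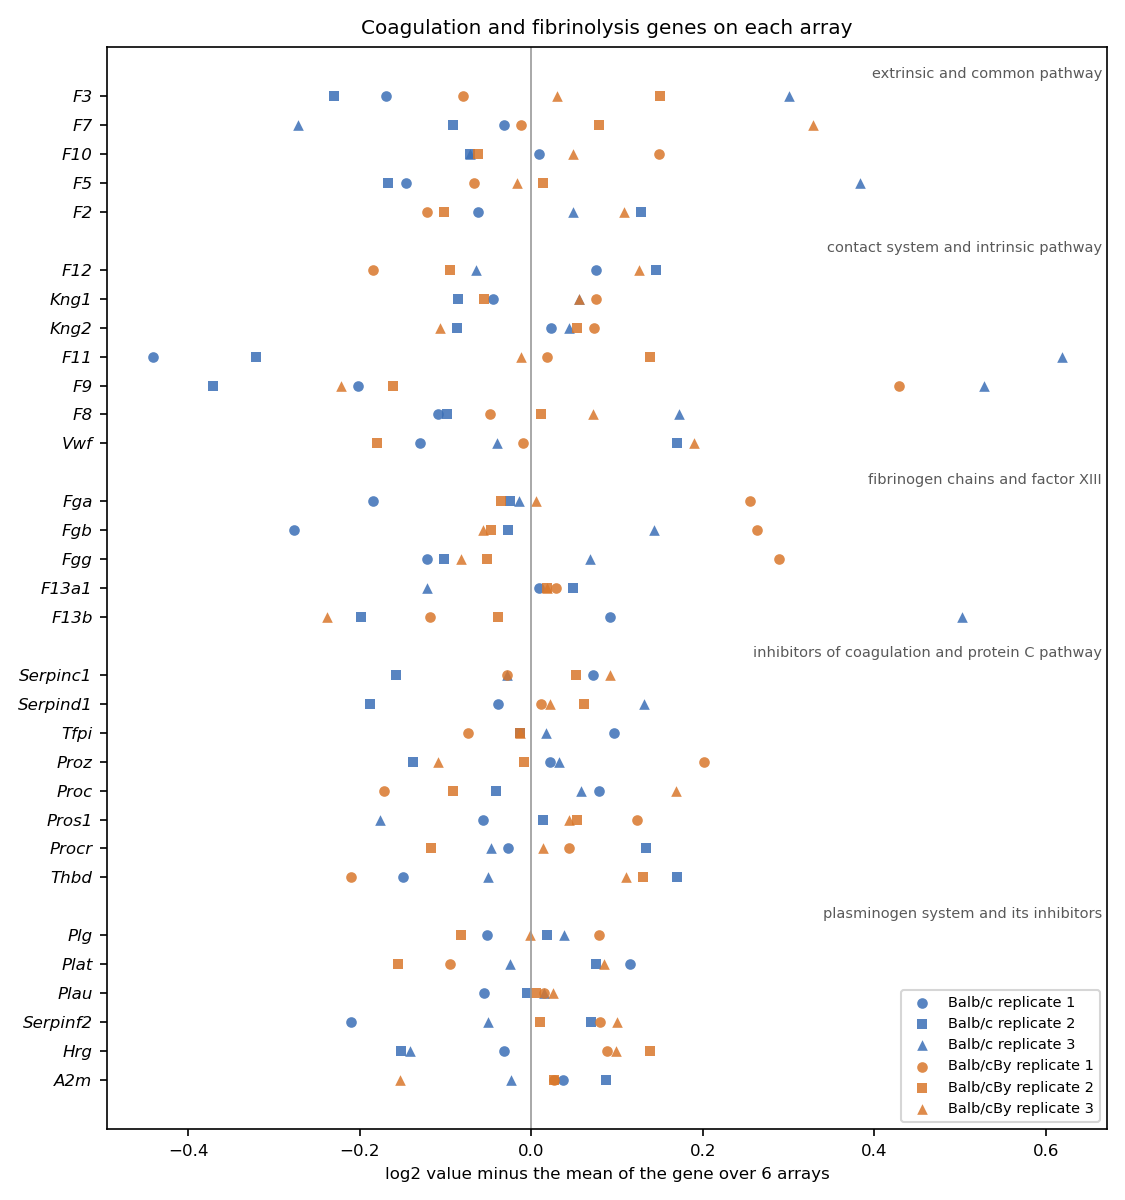
Log2 value of each of the 31 genes on each of the 6 arrays minus that gene's mean (x axis), with colour for the substrain and shape for the replicate number. F11, F9, F13b, F5 and F3 have the triangle of Balb/c replicate 3 far to the right, and the 3 fibrinogen chains have the circle of Balb/cBy replicate 1 there.

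The levels of a gene also varied from mouse to mouse within a substrain. The range over the 6 mice was under 0.5 in 24 of the 31 members, with a median of 0.31 beside 0.38 over all genes. It was widest in F11, at 1.05 or 2.08-fold, and in F9, at 0.90 or 1.86-fold. Balb/c replicate 3 was the highest of the 6 mice in 7 members (22.6%, beside 16.3% of all genes). Balb/cBy replicate 1 was the highest in 9 (29.0%, beside 20.9%), Balb/cBy replicate 3 in 6 (19.4%, beside 8.86%) and Balb/cBy replicate 2 in 1 (3.23%, beside 21.7%). Balb/c replicates 1 and 2 were the highest in 2 and 6 members. The lowest mouse was Balb/c replicate 1 in 7 members (22.6%, beside 11.6%) and Balb/c replicate 2 in 9 (29.0%, beside 17.3%). It was Balb/cBy replicate 1 in 5 (16.1%, beside 14.7%) and Balb/cBy replicate 2 in 4 (12.9%, beside 20.6%). Balb/c replicate 3 and Balb/cBy replicate 3 were the lowest in 3 members each (9.68%, beside 19.4% and 16.4%).

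In 5 members, F11, F9, F13b, F5 and F3, Balb/c replicate 3 lay at least 0.5 above the mean of the other Balb/c mice, beside 4.37% of all genes. These genes were picked for that gap, so it carries no test. It was widest in F11 (10.49 against 9.43 and 9.55) and came to 0.81 in F9, 0.55 in F13b, 0.54 in F5 and 0.50 in F3. F5 read 11.38, 11.36 and 11.91 in Balb/c and 11.46, 11.54 and 11.51 in Balb/cBy. F3 read 8.14, 8.08 and 8.61 against 8.23, 8.46 and 8.34. Balb/c replicate 3 was the highest of the 6 mice in each of the 5 genes. The members with the opposite gap of 0.5 or more numbered 0, beside 1.96% of all genes.

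The same mouse read low for acute phase proteins, which the liver makes under inflammatory signals. The mean of the 11 measured acute phase genes was 11.38 in Balb/c replicate 3, against 12.79 and 12.87 in the other Balb/c mice and 12.40 to 12.91 in Balb/cBy. Saa2 (a serum amyloid A) read 9.94 there, against 13.91 and 13.87 in the other Balb/c mice, and Lcn2 (lipocalin 2) read 9.95 against 12.20 and 12.23. Fibrinogen, itself counted among the acute phase proteins, was not low in this mouse. Its chains lay above the mean of the other Balb/c mice there, by 0.09 for Fga, 0.29 for Fgb and 0.18 for Fgg. Macrophage markers were also lowest there: the mean of 11 markers was 9.58 against 10.15 and 10.33 in the other Balb/c mice and 9.91 to 10.25 in Balb/cBy. The mean of 5 exocrine pancreas markers, 7.89, was the highest of the 6 mice (7.19 to 7.46 in the others), though all these means lie under the olfactory receptor level of 8.02, as do 3 of the 5 markers in both groups. The part of these in the values of F11, F9, F13b, F5 and F3 was not tested.

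**Figure D4:**
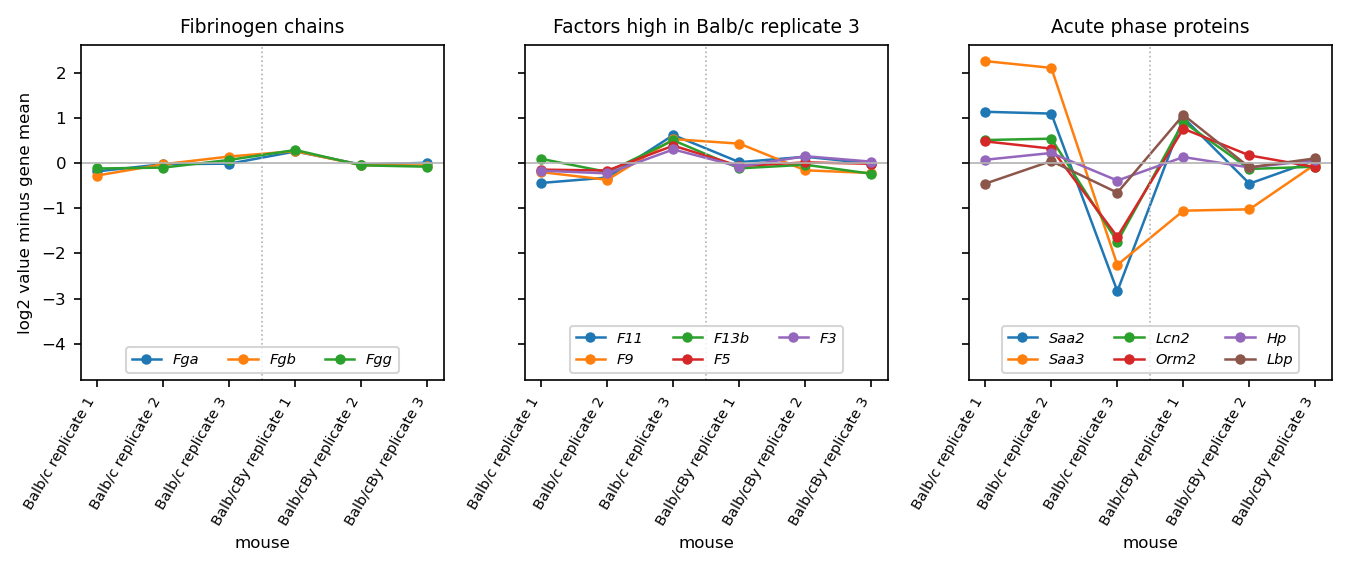
Log2 value minus the gene's mean (y axis) in each of the 6 mice (x axis; the dotted line parts Balb/c from Balb/cBy) for the fibrinogen chains, for the 5 factors picked for being high in Balb/c replicate 3, and for 6 acute phase genes. Balb/c replicate 3 is the highest mouse for the 5 factors and reads 9.94 for Saa2 against 13.91 and 13.87 in the other Balb/c mice, while the fibrinogen chains stay within 0.53 over all mice.

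Of the other genes of the pathway 0 passed the adjusted threshold. The groups were apart in 1 of 6 vitamin K cycle genes, 6 of 24 inhibitors, receptors and related genes and 2 of 10 regulators, beside 7.83% of all genes. The vitamin K cycle lets the liver carboxylate prothrombin, factors VII, IX and X and proteins C, S and Z. Of its 6 genes, 3 were higher and 3 lower in Balb/cBy (median 0.02). Ggcx, the carboxylase, averaged 10.83 ± 0.07 in Balb/c against 11.05 ± 0.11 in Balb/cBy (SD, n = 3 each) with groups apart, a difference of 0.22 ± 0.10 (SE, limma adjusted p = 0.999). Nqo1 and Vkorc1l1, both reductases, differed by -0.18 ± 0.15 and 0.18 ± 0.19 (SE), Nqo1 under the olfactory receptor level in both groups, and Vkorc1, the main vitamin K epoxide reductase, by -0.02 ± 0.12 (SE). The 7 carboxylated proteins among the members had a median difference of 0.06, with 5 higher and 2 lower.

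Of 24 measured inhibitors, receptors, activators and related genes, 17 were higher and 7 lower in Balb/cBy, with a median of 0.10 beside -0.0028 over all genes. By limma 5 of the 24 had an unadjusted p under 0.05, all higher, beside 3.74% of all genes (2.59% higher), and 0 passed after adjustment. S100a10, the annexin A2 partner that binds plasminogen at cell surfaces, read 11.93 ± 0.18 in Balb/c and 12.48 ± 0.10 in Balb/cBy (SD, n = 3 each). Its difference was 0.55 ± 0.12 (SE), with an adjusted p of 0.506. Fetub (fetuin-B, a protease inhibitor) differed by 0.40 ± 0.11 (SE) and F2r (the thrombin receptor PAR1) by 0.36 ± 0.11 (SE). The rest of the 5 were Habp2, a protease that can activate factor VII, and Serpina10, the protein Z-dependent inhibitor, at 0.30 ± 0.10 and 0.52 ± 0.19 (SE). The groups were apart in these 5 and, the other way, in Serpina5. It differed by -0.10 ± 0.08 (SE), under the olfactory receptor level in both groups. Serpina10 read 12.29 in Balb/cBy replicate 1, against 11.63 and 11.66 in the other Balb/cBy mice and up to 11.54 in Balb/c. Proz itself, the cofactor of Serpina10, differed by 0.06 ± 0.11 (SE). Fgl1, the fibrinogen-like protein, read 11.77, 12.15 and 9.66 in Balb/c and 12.62, 11.09 and 11.40 in Balb/cBy. Its wide Balb/c spread (SD 1.34, n = 3) came from replicate 3, and its interval ran from -0.96 to 1.99.

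Of 10 regulators of these genes in liver, 7 were higher and 3 lower (median 0.18), and 0 passed. Cebpa, a transcription factor of hepatocytes, differed by -0.36 ± 0.11 (SE), with 11.34 ± 0.12 in Balb/c, 10.98 ± 0.13 in Balb/cBy (SD, n = 3 each) and groups apart. Il6st, the shared receptor chain of the interleukin 6 family, differed by 0.24 ± 0.10 (SE) and Stat3, which carries its signal, by 0.32 ± 0.14 (SE). Hnf4a, a master regulator of clotting factor genes, differed by 0.17 ± 0.12 (SE).

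**Figure D5:**
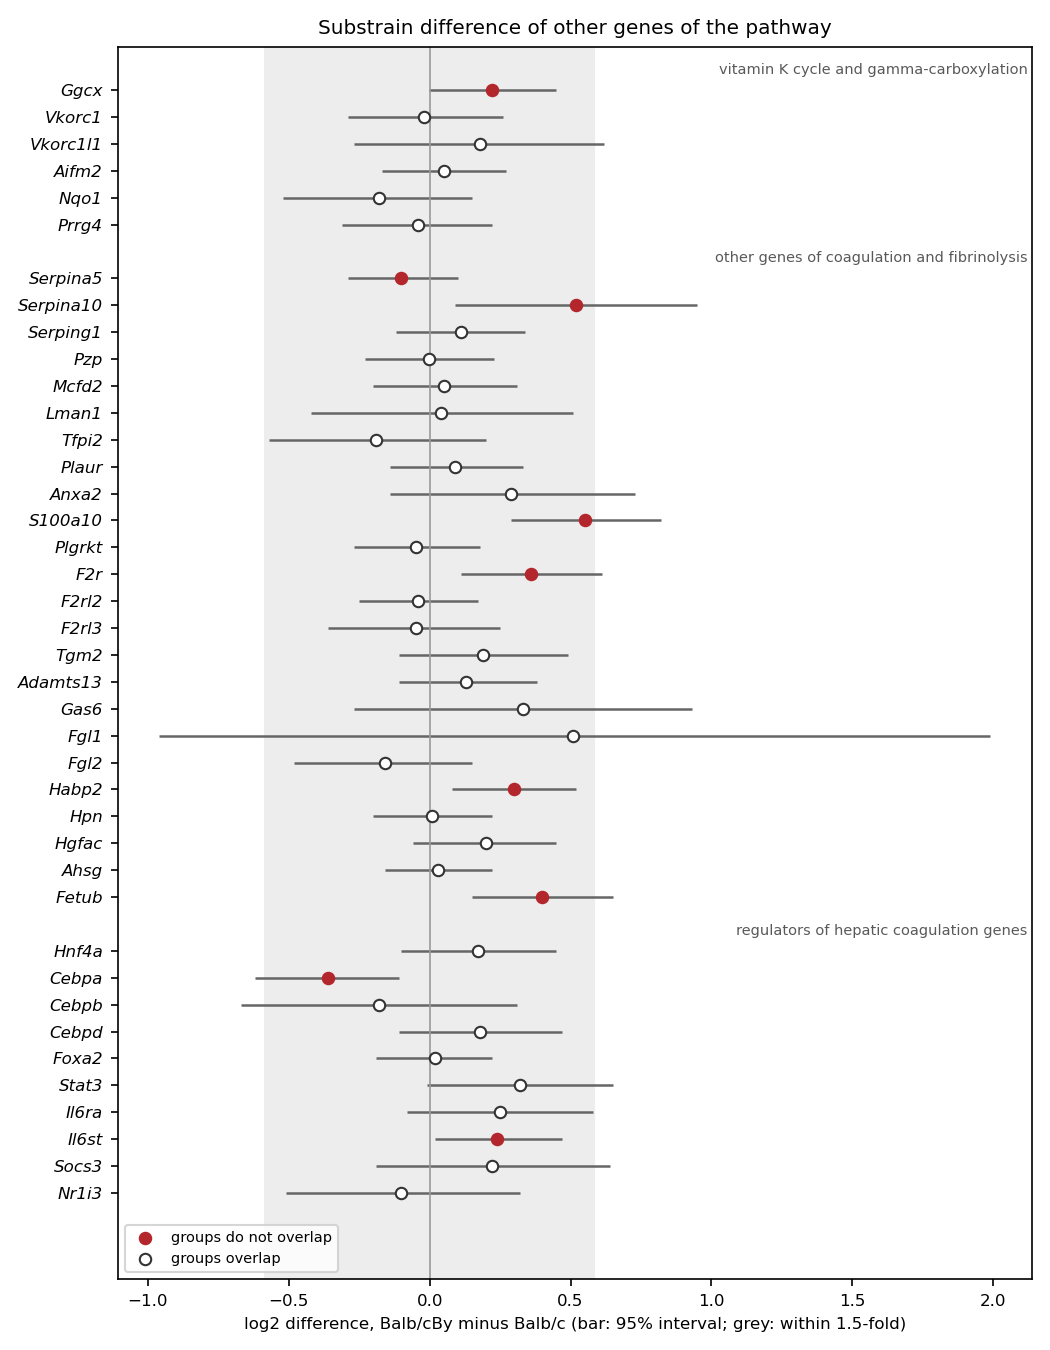
Difference in log2 value between Balb/cBy and Balb/c liver (x axis, Balb/cBy minus Balb/c) for 40 genes of the pathway outside the set of factors, with bars for the 95% interval of the limma fit (3 mice per group) and grey for 1.5-fold either way. S100a10, Fetub, F2r, Habp2 and Serpina10 lie to the right of 0 and Cebpa to the left, all filled because their groups did not overlap.

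Markers of the cell types that make the remaining factors gave some differences wider than that of any member. Of 12 endothelial markers 9 were higher and 3 lower in Balb/cBy (median 0.06), and their mean per mouse was 9.61 to 9.75 in Balb/c and 9.57 to 9.96 in Balb/cBy. Emcn (endomucin) differed by 0.55 ± 0.15 (SE), with groups apart (limma adjusted p = 0.999). Its Balb/c mean, 7.96, lay under the olfactory receptor level. In Kdr the groups were apart the other way, at -0.23 ± 0.13 (SE), and in the rest of the 12 they overlapped. Over all genes the groups were apart in 7.83%. The endothelial members F8, Vwf, Procr, Thbd and Plat differed by 0.02, -0.0014, -0.04, 0.02 and -0.11. Of these, Thbd lay under the olfactory receptor level in both groups. Vwf, with a mean of 8.18 in both groups, and Plat, with 8.14 in Balb/c and 8.03 in Balb/cBy, lay close to it. Small differences of these dim genes say little. Of 6 platelet and megakaryocyte markers 4 were higher and 2 lower (median 0.09), and of 11 macrophage markers 7 and 4 (median 0.12). Among the platelet markers the groups were apart in 1, Gp9, at 0.27 ± 0.10 (SE). Among the macrophage markers Cd68 differed by 0.43 ± 0.23, Vsig4 by 0.41 ± 0.16, Adgre1 by -0.37 ± 0.29 and Mpeg1 by 0.35 ± 0.12 (SE), with groups apart in Mpeg1 alone of the 11. In all 3 lists 0 markers passed by limma, and their part in the members' values was not tested.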

How the data were processed

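Liver RNA of 3 Balb/c and 3 Balb/cBy mice was compared on 6 arrays, grouped by the substrain in the labels. The deposited log2 values were made with RMA (background correction, quantile normalization and summary per probe set), per the submitters' processing notes; software, version and genome build are not given in the sources used here. For dim genes RMA shrinks differences.

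Of 41345 probe sets in the table, 23521 carry 1 gene symbol in the platform annotation. With substrain as the one factor, these were fitted in limma 3.58.1 (R 4.3.3), with empirical Bayes moderation, two-sided tests, Benjamini-Hochberg adjustment over all of them and a threshold of 0.05. Counts over genes use the probe set of highest mean. A permutation test of 3 against 3 cannot go below p = 0.1. In simulated arrays of 23521 probe sets, limma recovered 31.3% of planted 1.5-fold, 86.6% of 2-fold and 100.0% of 4-fold changes, 67, 67 and 66 in number, with 14 false calls. The simulated noise was normal and independent between genes, with variances drawn from the limma fit. No simulated mouse stood apart as Balb/c replicate 3 does, so these shares may be too high for the real arrays. The number of arrays limits the precision.

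The members, gene lists, tests and alternatives were chosen with earlier results of these data known. Array values are given by rule for the fibrinogen chains, members whose groups do not overlap and the 8 members of smallest p, and of each other pathway list up to 3 genes of smallest p are named. Habp2, Serpina10, Serpina5, F11, F9, F5, F3, Proc, Vkorc1, Pzp, Fgl1 and Hnf4a were named after their values were seen. So were the acute phase genes, the cell markers and the neighbours. Alternatives were the replicate number as a block, array weights, a mean trend with robust moderation, 2 other scalings, other choices of probe sets and leaving out arrays.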

Additional observations from a re-analysis of the deposited data

How the results depend on the processing

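In all 16 alternatives 0 of the members passed. Their lowest limma adjusted p was 0.38, for F11 without Balb/c replicate 3 and Balb/cBy replicate 1. Each member had a single probe set, so some alternatives could not change a member's difference. These were fitting every probe set, averaging the probe sets of a gene and taking the probe set of lowest mean. Members with an unadjusted limma p under 0.05 numbered 0 with a mean trend, beside 3.55% of all genes. The count was also 0 with the replicate block (2.28% of all genes) and with renewed quantile normalization (4.22%). It was 2 with array weights (7.75%), 2 without both arrays (9.81%) and 0 to 2 with 1 array left out (1.94% to 8.17%). Among all genes 17 passed with array weights, 13 without both arrays and 0 to 3 with 1 array left out (2 when Balb/c replicate 3 and 3 when Balb/cBy replicate 1 was left out). The median difference of the members was -0.003 after renewed quantile normalization and -0.005 to 0.084 with 1 array left out, lowest without Balb/c replicate 1, 0.006 without Balb/c replicate 2 and highest without Balb/c replicate 3. Members with groups apart numbered 1 after renewed quantile normalization and 11 without both arrays (8.73% and 43.2% of all genes). With 1 array left out there were 3 to 11, among fewer arrays to separate: 4, 7 and 11 without Balb/c replicates 1, 2 and 3 in turn (beside 16.7%, 15.3% and 19.6% of all genes), and 3, 9 and 8 without Balb/cBy replicates 1, 2 and 3 (beside 26.9%, 12.9% and 15.5%). Up to 9 members turned sign in a setting, most without Balb/c replicate 2. The filter to brighter probe sets left out F13a1, Tfpi, Thbd and A2m.

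Same-numbered mice did not deviate together (r of -0.323, -0.193 and -0.232 over 23521 probe sets, and 0 samples closest to their own number), so the replicate block pairs mice that share only a number.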

Other observations

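The clotting genes lie in small clusters, and their neighbours gave these values. Hrg sits between Fetub and the kininogen genes. Differences along that stretch were 0.43 ± 0.17 (SE) for Dnajb11, an endoplasmic reticulum chaperone, 0.03 ± 0.08 for Ahsg (fetuin-A), 0.40 ± 0.11 for Fetub, 0.22 ± 0.09 for Hrg, 0.01 ± 0.10 for Kng2 and 0.05 ± 0.09 for Kng1. The groups were apart in Dnajb11, Fetub and Hrg, beside 7.83% of all genes. Around the fibrinogen genes, Plrg1, a splicing factor gene beside Fgb, differed by 0.51 ± 0.17 (SE) with groups apart. Lrat, beside Fgg, differed by 0.23 ± 0.20 (SE) with overlapping groups. Beside F11, Mtnr1a, a melatonin receptor gene, read 9.23 in Balb/c and 8.61 in Balb/cBy with groups apart (-0.62 ± 0.13 SE, limma adjusted p = 0.497). F7, F10 and Proz lie in a row and differed by 0.27 ± 0.12, 0.09 ± 0.09 and 0.06 ± 0.11 (SE). Pcid2, on the far side of Proz, differed by 0.39 ± 0.16, and on the side of F7 Mcf2l differed by -0.03 ± 0.10 and Atp11a by 0.43 ± 0.24 (SE), with overlapping groups in all 3. The neighbours above were picked after their values were seen, and the other measured ones had overlapping groups. Those were Eif4a2 (-0.06) near Kng1, Tubgcp3 (0.19) near F7 and Rbm46 (-0.13) near Lrat. Near F11 they were Fat1 (0.27), Cyp4v3 (-0.14) and Fam149a (-0.05). The neighbours of Pros1 differed by -0.08 (Epha3) to 0.10 (Stx19). None of the neighbours passed the adjusted threshold, and the order comes from RefSeq's GRCm38.p6 table.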
